A study of Mus musculus with 16 samples.

Results

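The 9 genes described here set the balance between extracellular pyrophosphate, phosphate and the proteins that hold back mineral in the artery wall. They are Enpp1, Abcc6, Nt5e, Alpl, Phospho1, Mgp, Spp1, Ahsg and Fam20c. They were taken by gene symbol from the 54532 genes of the table of read counts. This rule uses no measured value, but the list was chosen with earlier results of these data known. All 9 were found, and all 9 passed the filter on low counts in each of 6 comparisons. RNA-seq of the whole aorta was available for 16 male C57BL/6J mice in 4 groups of 4. The mice were aged 12 weeks at surgery. Sham mice, whose kidneys were left in place, received a diet with 2% phosphorus and 2.5% protein (HPi-Lp). Those of 5/6 Nx-HPi-Lp underwent a 5/6 nephrectomy, which combined ligation of the poles of the left kidney with a later removal of the right kidney, and received this same diet. The 5/6 Nx-HPi-Hp mice had the nephrectomy and 2% phosphorus with 18% protein, and the 5/6 Nx-LPi-Lp mice had the nephrectomy and 0.3% phosphorus with 2.5% protein. Diets were given for 30 days. Sham mice were present on the HPi-Lp diet alone, so for the other 2 nephrectomized groups surgery and diet cannot be told apart against Sham. Each library came from its own mouse.

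Hydroxyapatite forms where calcium meets inorganic phosphate, and pyrophosphate is its best known small inhibitor in arteries. ENPP1 makes pyrophosphate and AMP from ATP that reaches the extracellular space with the help of ABCC6, CD73 (the product of Nt5e) turns the AMP into adenosine, and tissue-nonspecific alkaline phosphatase (Alpl) breaks pyrophosphate down to phosphate. Matrix Gla protein, osteopontin (Spp1) and fetuin-A (Ahsg) bind calcium or mineral as proteins, PHOSPHO1 releases phosphate inside matrix vesicles, and the kinase FAM20C phosphorylates secreted proteins, osteopontin among them.

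The windows around the RefSeq gene starts are shown for the 3 members called higher in 5/6 Nx-HPi-Lp aortas, Spp1, Alpl and Nt5e, and for Enpp1, the source of pyrophosphate. Each runs from 250 bases before to 50 bases after a start (GRCm38.p6), which may differ from the gene start in the count table. Capitals mark matches, on either strand, to the RUNX letters TGTGGT, read as ACCACA on the opposite strand, the AP-1 letters TGANTCA, the E-box CACGTG and the TATA letters TATAAA, read as TTTATA on the opposite strand. These patterns do not overlap one another in the windows shown.
Spp1, chr5:104434861-104435160, plus strand: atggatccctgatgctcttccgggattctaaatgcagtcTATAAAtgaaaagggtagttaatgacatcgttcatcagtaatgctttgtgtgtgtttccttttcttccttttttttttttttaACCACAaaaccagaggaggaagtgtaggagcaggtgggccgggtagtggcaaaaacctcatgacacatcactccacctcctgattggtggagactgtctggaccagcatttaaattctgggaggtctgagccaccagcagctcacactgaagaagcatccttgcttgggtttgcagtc
Nt5e, chr9:88327359-88327658, plus strand: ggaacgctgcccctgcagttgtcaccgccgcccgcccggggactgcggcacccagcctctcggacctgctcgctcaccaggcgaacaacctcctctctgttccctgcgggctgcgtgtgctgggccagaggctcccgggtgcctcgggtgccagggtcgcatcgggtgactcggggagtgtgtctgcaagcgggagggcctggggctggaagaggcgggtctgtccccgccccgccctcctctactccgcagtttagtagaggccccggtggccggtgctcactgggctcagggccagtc
Alpl, upstream start, chr4:137796335-137796634, minus strand: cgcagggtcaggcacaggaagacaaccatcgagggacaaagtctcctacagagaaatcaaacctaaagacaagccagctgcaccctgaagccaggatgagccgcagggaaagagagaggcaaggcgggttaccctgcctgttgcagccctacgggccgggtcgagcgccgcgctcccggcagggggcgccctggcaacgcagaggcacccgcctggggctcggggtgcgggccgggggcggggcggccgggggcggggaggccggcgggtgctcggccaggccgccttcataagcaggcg
Alpl, downstream start, chr4:137766426-137766725, minus strand: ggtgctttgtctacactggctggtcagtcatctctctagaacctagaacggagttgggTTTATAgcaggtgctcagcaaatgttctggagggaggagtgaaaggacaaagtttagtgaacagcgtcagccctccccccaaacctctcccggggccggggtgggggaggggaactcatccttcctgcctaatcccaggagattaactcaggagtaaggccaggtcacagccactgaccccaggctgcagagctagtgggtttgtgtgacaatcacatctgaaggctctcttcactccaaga
Enpp1, chr10:24712110-24712409, minus strand: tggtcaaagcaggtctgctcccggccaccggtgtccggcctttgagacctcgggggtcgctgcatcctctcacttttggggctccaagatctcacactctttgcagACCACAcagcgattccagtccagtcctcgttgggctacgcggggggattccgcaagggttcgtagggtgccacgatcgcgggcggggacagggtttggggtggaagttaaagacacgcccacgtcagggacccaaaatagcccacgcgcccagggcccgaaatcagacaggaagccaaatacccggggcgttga
The Spp1 window held ACCACA at bases -128 to -123 from the start and TATAAA at bases -211 to -206. The Enpp1 window held ACCACA at bases -144 to -139, the downstream Alpl window held TTTATA at bases -192 to -187, and the Nt5e and upstream Alpl windows held none of the 4 patterns. RUNX letters were present in 16.8% of 32851 mouse promoter windows of the same length, AP-1 letters in 7.81%, the E-box in 7.15% and TATA letters in 13.6%. Of the 9 members, 7 had an entry, with 9 windows in all. Abcc6 and Mgp had none. Among the windows not shown, the Phospho1 window held an AP-1 and an E-box match, and the second Spp1 window and those of Ahsg and Fam20c held none. A match describes letters and not a bound site.

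Libraries held between 13659525 and 57276915 counted reads, which limits precision most for Abcc6 and Phospho1, and the 5/6 Nx-HPi-Lp group spanned the widest range, from 15013203 to 57276915. Mitochondrially encoded genes took 4.18 to 6.34% of reads in Sham mice and 9.50 to 29.0% in the nephrectomized mice. The labelled tissue was borne out by smooth muscle markers at a summed 20821 to 24785 CPM (reads of a gene scaled to its library's TMM-normalized total) in Sham mice, and these markers were at 2251 to 5102 CPM in 5/6 Nx-HPi-Lp mice, 6809 to 22005 CPM in 5/6 Nx-HPi-Hp mice and 7652 to 17567 CPM in 5/6 Nx-LPi-Lp mice. Sympathetic neuron markers set 2 libraries apart, at a summed 832 and 683 CPM in 5/6 Nx-HPi-Lp mice 1 and 4 against 0.723 to 2.34 CPM in Sham mice. The other libraries were at 19.7 and 152 CPM in mice 2 and 3 of that group, 2.89 to 120 CPM in 5/6 Nx-HPi-Hp mice and 1.53 to 79.7 CPM in 5/6 Nx-LPi-Lp mice. Each change called for 5/6 Nx-HPi-Lp was therefore also fitted without mice 1 and 4. In whole tissue, fewer cells of a type and less RNA per cell cannot be told apart.

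The 9 genes spanned a wide range of levels. Per transcript length, as the deposited FPKM (fragments scaled to transcript length and library size), Mgp stood first in every group, at 2602 ± 623 (SD, n = 4) in Sham mice and 1514 ± 354 in 5/6 Nx-HPi-Hp mice. Abcc6 stood last in every group, at 0.102 ± 0.0347 FPKM in Sham mice. In Sham mice Fam20c followed Mgp at 8.05 ± 0.253 FPKM, and then came Alpl (4.12 ± 0.751), Enpp1 (3.83 ± 0.458) and Ahsg (3.19 ± 0.720), whose neighbouring ranges overlapped. Nt5e, Spp1 and Phospho1 followed at means of 1.04, 0.790 and 0.724 FPKM, again with overlapping ranges between neighbours. The order in 5/6 Nx-HPi-Lp mice differed most visibly by 1 gene. Spp1 stood second there at 452 ± 270 FPKM, seventh in Sham mice, sixth in 5/6 Nx-HPi-Hp mice at 1.64 ± 1.03 and eighth in 5/6 Nx-LPi-Lp mice at 0.783 ± 0.445. In 5/6 Nx-HPi-Lp mice Alpl (9.56 ± 4.52 FPKM) and Fam20c (5.88 ± 0.680 FPKM) came next with ranges that overlapped.

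**Figure D1:**
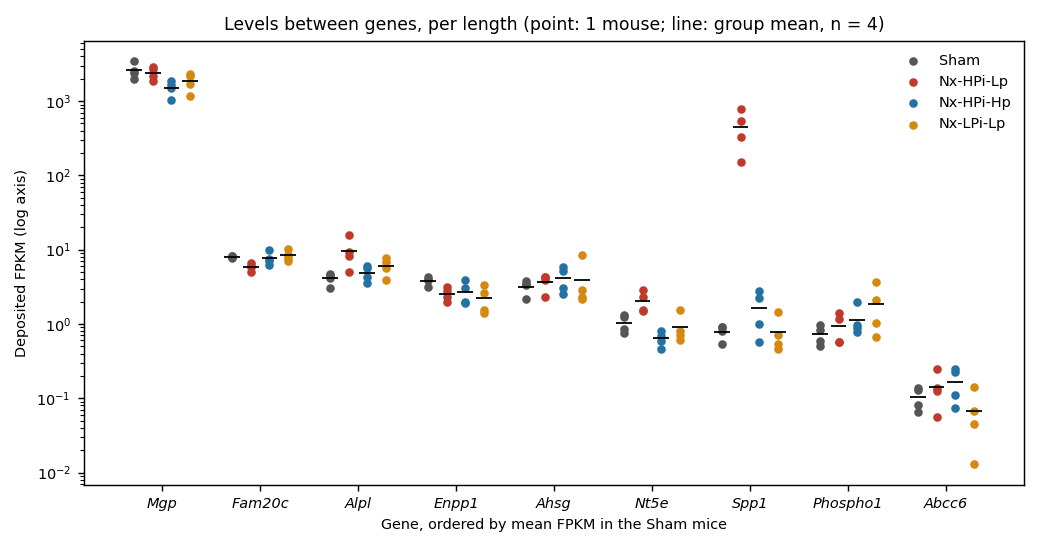
Deposited FPKM of the 9 genes (log axis) in each of 16 mice, genes ordered by their mean in Sham mice; points are mice, colours are the 4 groups and short lines are group means (n = 4). Mgp lies on top throughout, Abcc6 at the bottom, and the 5/6 Nx-HPi-Lp points of Spp1, with a mean of 452, lie far above those of the other 3 groups.

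A gene was called higher or lower where its change was at least 2-fold and edgeR's quasi-likelihood test gave it an adjusted p up to 0.05 (Benjamini-Hochberg, over all genes tested). In 5/6 Nx-HPi-Lp against Sham mice, which asks what the nephrectomy changed on 1 diet, 2 of 9 members were called, Spp1 and Alpl, both higher. That share was no larger than the background, since 22.2% of 16513 genes were called, 15% higher and 7.18% lower. By adjusted p alone, 5 of 9 members passed (Spp1, Alpl and Nt5e higher, Enpp1 and Fam20c lower) against 42.9% of all genes. Against 5/6 Nx-HPi-Hp mice, which differ in dietary protein, 2 of 9 were called, Spp1 and Nt5e, both higher, beside 8.12% of 16198 genes (5.01% higher, 3.11% lower), and the same 2 passed by adjusted p alone beside 13% of genes. Against 5/6 Nx-LPi-Lp mice, which differ in dietary phosphorus, Spp1 and Nt5e were again called higher, beside 11.9% of 16253 genes (7.9% higher, 3.98% lower), and Fam20c joined them by adjusted p alone, beside 20.1% of genes. These 3 comparisons all use the 5/6 Nx-HPi-Lp libraries and are not independent.

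In the remaining comparisons no member was called. Limma was run on genes at a mean above 0.5 FPKM and so did not test Abcc6, and its results cover the other members only. For 5/6 Nx-HPi-Hp against Sham mice, 0 of 9 members were called by edgeR, DESeq2 or limma and 3 of 9 had an unadjusted p under 0.05 (Mgp, Nt5e and Enpp1), while 12.2% of 15882 genes were called, 9.41% higher and 2.75% lower. Mgp alone passed by adjusted p, beside 31.4% of genes. For 5/6 Nx-LPi-Lp against Sham mice, edgeR and limma called 0 of 9, DESeq2 called 1 (Phospho1), and 3 had an unadjusted p under 0.05 (Enpp1, Alpl and Phospho1), while 10.9% of 16071 genes were called, 8.79% higher and 2.08% lower. Enpp1 alone passed by adjusted p, beside 31.8% of genes. In 5/6 Nx-HPi-Hp against 5/6 Nx-LPi-Lp mice 0 members were called by any of the 3 tools and 0 had an unadjusted p under 0.05. Of all 15850 genes 0% were called by edgeR there, 0% higher, 0% lower and 0% by adjusted p alone, with 1420 genes at an unadjusted p under 0.05 and 78 called by DESeq2.

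**Figure D2:**
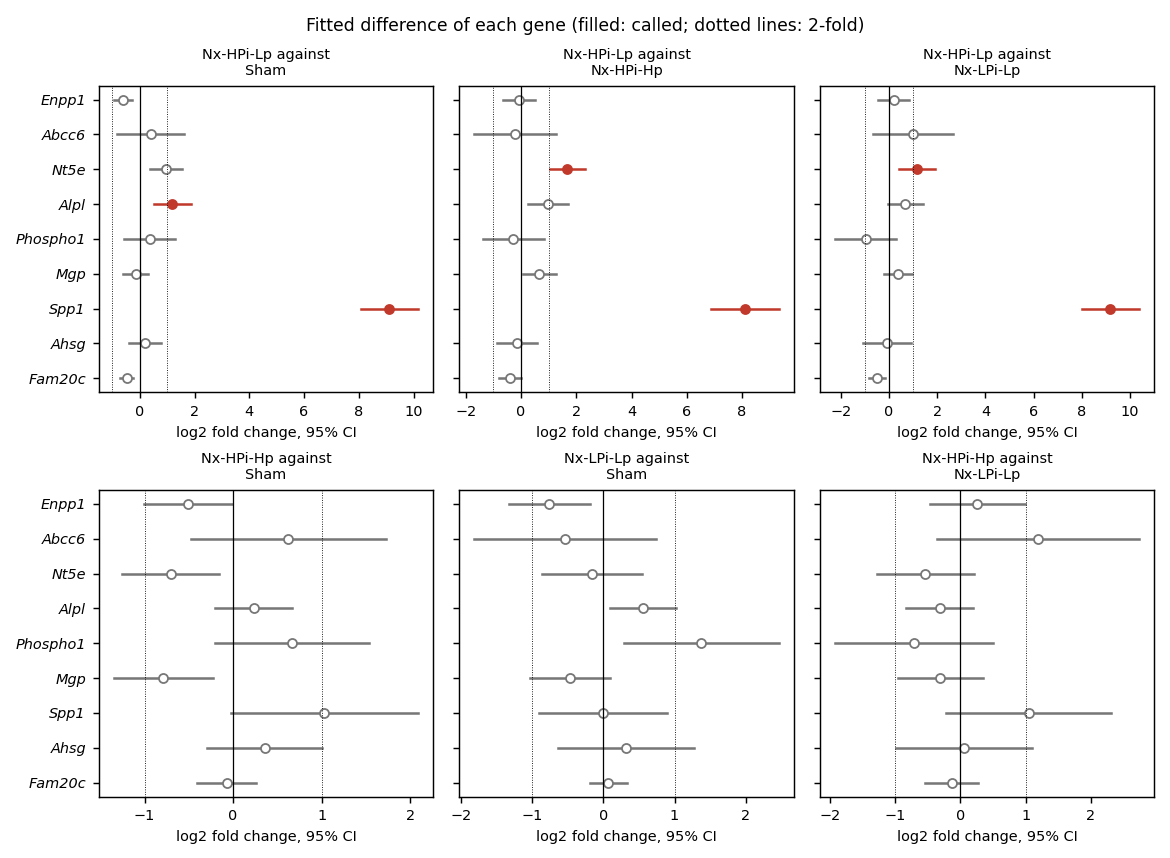
Log2 fold change of each of the 9 genes in each of the 6 comparisons (edgeR; bars are 95% confidence intervals, n = 4 against 4), with called genes set apart by their fill. Spp1 lies at 8.11 to 9.19 in the 3 comparisons of 5/6 Nx-HPi-Lp mice, and most other intervals reach across 0.

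Enpp1 (ENSMUSG00000037370, chromosome 10, 24637914 to 24712159, minus strand, mm10) makes extracellular pyrophosphate. Its levels in the 4 Sham mice were 40.4, 40.5, 44.1 and 32.5 CPM. They were 20.3, 32.5, 24.3 and 28.9 CPM in 5/6 Nx-HPi-Lp mice, 20.6, 30.5, 19.4 and 39.3 CPM in 5/6 Nx-HPi-Hp mice, and 14.3, 16.1, 26.7 and 34.6 CPM in 5/6 Nx-LPi-Lp mice. The means of all 3 nephrectomized groups lay below the Sham mean, and each group had at least 1 mouse at or above the lowest Sham mouse. The difference from Sham was -0.61 on the log2 scale in 5/6 Nx-HPi-Lp mice (95% CI, -0.95 to -0.27; adjusted p = 0.00921), -0.51 in 5/6 Nx-HPi-Hp mice (95% CI, -1.01 to -0.0088; adjusted p = 0.105) and -0.76 in 5/6 Nx-LPi-Lp mice (95% CI, -1.33 to -0.19; adjusted p = 0.0469). The first and last passed by adjusted p but stayed under the 2-fold threshold, and without 5/6 Nx-HPi-Lp mice 1 and 4 the first was -0.52 (adjusted p = 0.0292). Without 5/6 Nx-LPi-Lp mouse 4, the last was called, at -1.04 (adjusted p = 0.00638), and without any 1 of the other 7 mice it missed the adjusted p (0.0568 to 0.101). No difference among the nephrectomized groups passed the test, with 95% intervals of -0.66 to 0.49 for 5/6 Nx-HPi-Lp against 5/6 Nx-HPi-Hp mice and -0.44 to 0.83 against 5/6 Nx-LPi-Lp mice. All 6 smooth muscle markers were lower in 5/6 Nx-HPi-Lp than in Sham mice (median log2 fold change -2.82). Across the 16 mice, which share groups and libraries, their summed level and Enpp1 had r = 0.45 (0.48 within groups), and their part in the Enpp1 values was not tested.

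Abcc6 (ENSMUSG00000030834, chromosome 7, 45967555 to 46030302, minus strand), the transporter behind ATP release in liver, was close to the detection limit in the aorta, with 1 to 32 reads per library. Sham mice ranged from 0.379 to 0.780 CPM, 5/6 Nx-HPi-Lp mice from 0.329 to 1.43, 5/6 Nx-HPi-Hp mice from 0.433 to 1.41 and 5/6 Nx-LPi-Lp mice from 0.0740 to 0.805. The 4 ranges overlapped, the lowest value rested on a single read, and no difference was detectable at this depth. The interval for 5/6 Nx-HPi-Lp against Sham mice, -0.84 to 1.62 on the log2 scale, leaves room for a change of more than 2-fold upward. Hepatocyte markers, present at a summed 0.631 to 102 CPM over the 16 libraries, moved with Abcc6 (r = 0.71, 0.62 within groups), and their part in its level was not tested.

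**Figure D3:**
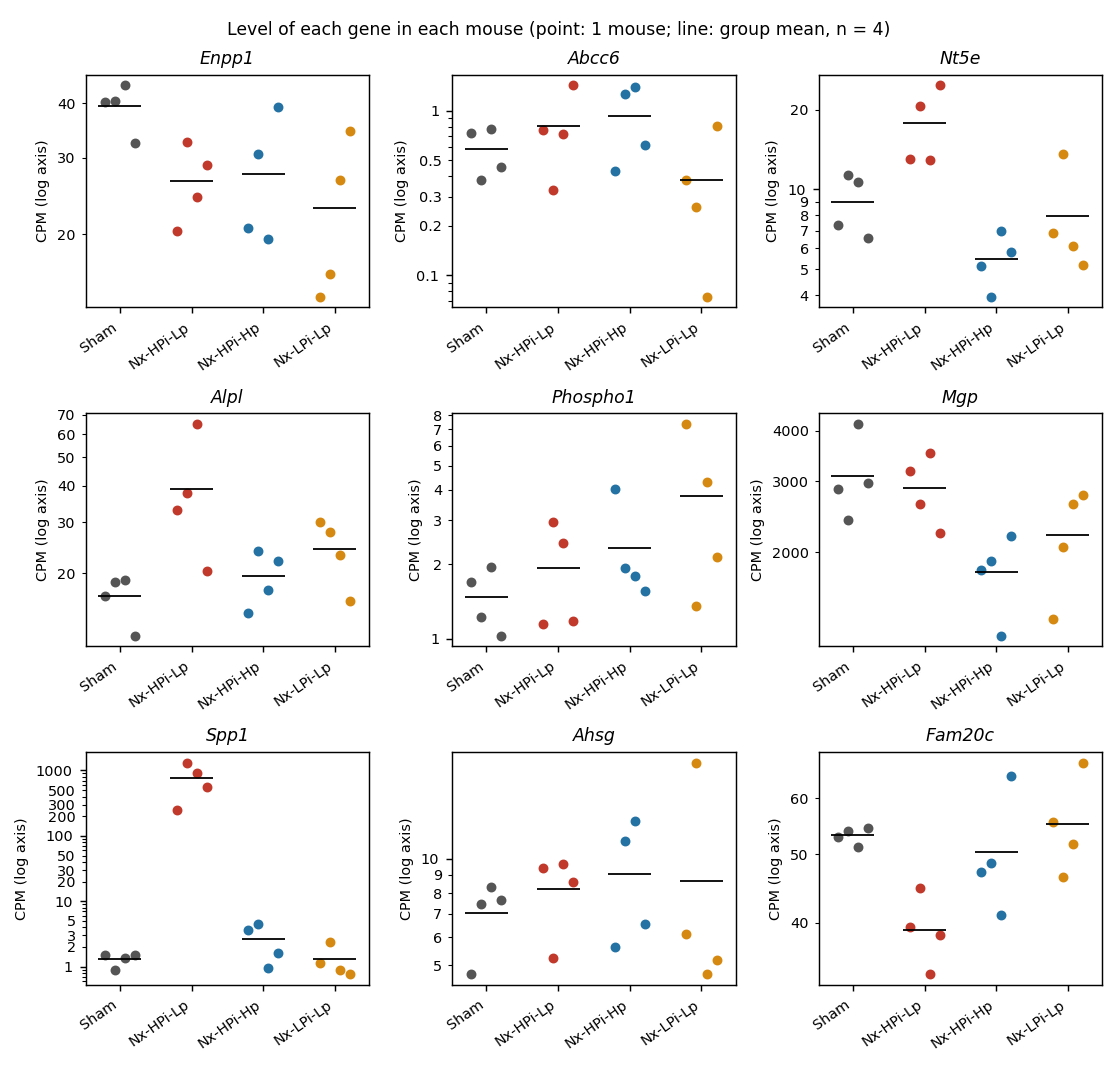
Level of each of the 9 genes in each mouse (CPM, log axis; points are mice and lines are group means, n = 4). The 5/6 Nx-HPi-Lp points of Spp1, from 249 to 1309 CPM, lie above all others, and the Nt5e points of that group overlap 1 mouse of the 5/6 Nx-LPi-Lp group and none of the Sham or 5/6 Nx-HPi-Hp groups.

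Nt5e (ENSMUSG00000032420, chromosome 9, 88327197 to 88372092, plus strand) rose in 5/6 Nx-HPi-Lp mice against both other nephrectomized groups. Its product CD73 is the ectonucleotidase that yields adenosine, and its loss in humans causes arterial calcification. Levels in 5/6 Nx-HPi-Lp mice were 13.0, 20.5, 13.0 and 24.7 CPM. Sham mice had 7.32, 11.3, 10.7 and 6.55 CPM, 5/6 Nx-HPi-Hp mice 5.14, 3.94, 6.95 and 5.81 CPM, and 5/6 Nx-LPi-Lp mice 6.87, 13.6, 6.14 and 5.21 CPM. All 5/6 Nx-HPi-Lp mice were above all Sham and 5/6 Nx-HPi-Hp mice, and 5/6 Nx-LPi-Lp mouse 2 reached into their range. The fold against 5/6 Nx-HPi-Hp mice was 3.21 (95% CI, 2.09 to 4.92; adjusted p = 0.00755). It was 2.23 against 5/6 Nx-LPi-Lp mice (95% CI, 1.33 to 3.74; adjusted p = 0.0393), and this call was lost when 5/6 Nx-HPi-Lp mouse 2 or 4 or 5/6 Nx-LPi-Lp mouse 1, 3 or 4 was left out, with adjusted p from 0.0817 to 0.109. Against Sham the fold was 1.93 (95% CI, 1.29 to 2.89; adjusted p = 0.0157), short of 2-fold, and it passed when Sham mouse 2 or 3 or 5/6 Nx-HPi-Lp mouse 1 or 3 was left out, at log2 fold changes of 1.02 to 1.09.

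Without 5/6 Nx-HPi-Lp mice 1 and 4, Nt5e remained called against 5/6 Nx-HPi-Hp mice, at 1.57 on the log2 scale (adjusted p = 0.0259), and not against 5/6 Nx-LPi-Lp mice (1.06, adjusted p = 0.119). In 5/6 Nx-HPi-Hp mice its log2 difference from Sham was -0.70 (adjusted p = 0.0533). Fibroblast markers moved with Nt5e, since 4 of 5 were called higher in 5/6 Nx-HPi-Lp against 5/6 Nx-HPi-Hp mice, and 4 of 5 against 5/6 Nx-LPi-Lp mice. Their summed level was 1323 to 3151 CPM against 706 to 1166 and 608 to 1200 CPM. Against Sham, 2 of 5 were called higher, and the Sham sum of 958 to 1624 CPM overlapped that of 5/6 Nx-HPi-Lp mice. Over the 16 mice Nt5e and the fibroblast sum had r = 0.74 (0.45 within groups), and the part of these markers in the Nt5e result was not tested.

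Alpl (ENSMUSG00000028766, chromosome 4, 137741733 to 137796384, minus strand), which hydrolyses pyrophosphate, rose in 5/6 Nx-HPi-Lp mice against Sham. Its levels were 33.0, 37.8, 65.1 and 20.4 CPM in 5/6 Nx-HPi-Lp mice and 16.8, 18.7, 18.9 and 12.2 CPM in Sham mice. The groups did not overlap, mouse 4 lay just above the highest Sham mouse and mouse 3 stood well above the rest. The fold was 2.28 (95% CI, 1.44 to 3.63; adjusted p = 0.0104). Without 5/6 Nx-HPi-Lp mouse 3, the log2 fold change went from 1.19 to 0.85 (adjusted p = 0.0168), below the 2-fold threshold. Without mice 1 and 4 it was 1.58 (adjusted p = 0.00135).

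The 5/6 Nx-HPi-Hp mice had 14.6, 23.9, 17.5 and 22.0 CPM of Alpl and the 5/6 Nx-LPi-Lp mice 30.1, 27.8, 23.1 and 16.1 CPM. Both ranges overlapped those of Sham and of 5/6 Nx-HPi-Lp mice. The log2 fold change of 5/6 Nx-HPi-Lp mice was 0.98 against 5/6 Nx-HPi-Hp mice (95% CI, 0.27 to 1.68; adjusted p = 0.0721) and 0.68 against 5/6 Nx-LPi-Lp mice (95% CI, -0.058 to 1.41; adjusted p = 0.171), neither called. The first was called without 5/6 Nx-HPi-Lp mouse 4 (1.19, adjusted p = 0.0483), the lowest of its group for Alpl. Both were called without mice 1 and 4 (1.36, adjusted p = 0.0304, and 1.07, adjusted p = 0.0499). That fit was added after the data were seen and keeps only mice 2 and 3, which had the higher Alpl levels of the group. Summed markers of other cell types that carry Alpl were also higher in 5/6 Nx-HPi-Lp than in Sham mice, though not every marker was. Neutrophil markers summed to 12.1 to 29.8 CPM in 5/6 Nx-HPi-Lp and 0.875 to 6.18 CPM in Sham mice, with Ly6g at 0 in every library of both groups. Osteoblast markers summed to 1552 to 9562 against 595 to 1016 CPM, with 1 of 3 tested called (Col1a1, also a fibroblast gene) and Bglap at 0 in every 5/6 Nx-HPi-Lp library. Kidney tubule markers summed to 9.43 to 27.4 against 2.30 to 5.26 CPM, with 3 of 6 tested, Aqp2 called higher, Cdh16 called lower, and Umod and Slc34a1 at 0 in every library. Over the 16 mice Alpl had r = 0.53 with the neutrophil sum (-0.03 within groups), 0.46 with the osteoblast sum (-0.03) and 0.46 with the kidney tubule sum (-0.33), and the part of these cells was not tested.

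Phospho1 (ENSMUSG00000050860, chromosome 11, 95824499 to 95832140, plus strand), the phosphatase of matrix vesicles, was sparse, with 18 to 161 reads per library. Sham mice had 1.69, 1.22, 1.95 and 1.03 CPM, and 5/6 Nx-HPi-Lp mice had 1.15, 2.94, 2.44 and 1.17 CPM. The 5/6 Nx-HPi-Hp mice had 4.01, 1.93, 1.80 and 1.56 CPM, and the 5/6 Nx-LPi-Lp mice had 7.36, 1.36, 4.29 and 2.13 CPM. The highest mouse was 5/6 Nx-LPi-Lp mouse 1, and its group's range overlapped that of Sham. The log2 fold change of 5/6 Nx-LPi-Lp against Sham mice was 1.38 (95% CI, 0.29 to 2.46; adjusted p = 0.0562) and was not called. It was called by DESeq2 (1.37, adjusted p = 0.0220), and by edgeR without 5/6 Nx-LPi-Lp mouse 2 (1.65, adjusted p = 0.0201) or mouse 4 (1.57, adjusted p = 0.0356). For 5/6 Nx-HPi-Lp against Sham it was 0.36 (95% CI, -0.57 to 1.29). Phospho1 overlaps Zfp652 on the same strand and Abi3 on the other. Those genes held 12233 and 1274 reads over the 16 libraries against 861 for Phospho1, so its counts are uncertain.

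Spp1 (ENSMUSG00000029304, chromosome 5, 104435118 to 104441050, plus strand), encoding osteopontin, a phosphorylated glycoprotein that binds hydroxyapatite and is made by bone cells and activated macrophages, rose the most of the 9 genes. Its levels in 5/6 Nx-HPi-Lp mice were 249, 1309, 921 and 549 CPM, from 3904 to 71577 reads. Sham mice had 1.51, 0.884, 1.34 and 1.48 CPM. The 5/6 Nx-HPi-Hp mice had 3.68, 4.53, 0.937 and 1.61 CPM, and the 5/6 Nx-LPi-Lp mice 1.15, 2.39, 0.888 and 0.757 CPM. The lowest 5/6 Nx-HPi-Lp mouse was thus far above the highest mouse of any other group. The fold was 554 against Sham (95% CI, 268 to 1147; adjusted p = 1.37e-05), 276 against 5/6 Nx-HPi-Hp (95% CI, 118 to 643; adjusted p = 0.00105) and 583 against 5/6 Nx-LPi-Lp mice (95% CI, 255 to 1335; adjusted p = 0.000299). In each of these 3 comparisons Spp1 was called under all 19 alternatives run, and without mice 1 and 4 the log2 fold changes were 9.67, 8.66 and 9.74. Mice 1 and 4 had the lower Spp1 levels of the group, so that fit keeps only the mice with the higher levels.

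Spp1 levels also varied among the 5/6 Nx-HPi-Lp mice themselves, by 5.25-fold from lowest to highest. Macrophage markers varied in the same order. Their 6 genes summed to 330.0, 1073, 702 and 537 CPM in these 4 mice, against 110 to 144 CPM in Sham, 148 to 305 CPM in 5/6 Nx-HPi-Hp and 116 to 188 CPM in 5/6 Nx-LPi-Lp mice, and all 6 were called higher in 5/6 Nx-HPi-Lp mice in each comparison. Their median log2 fold change was 2.42 against Sham, 1.51 against 5/6 Nx-HPi-Hp and 2.12 against 5/6 Nx-LPi-Lp mice, beside 9.11, 8.11 and 9.19 for Spp1. Over the 16 mice Spp1 and the macrophage sum had r = 0.93 (0.91 within groups), and the part of macrophage number in the Spp1 result was not tested. This order was not particular to macrophage markers. In 5/6 Nx-HPi-Lp mice 1 to 4 the fibroblast sum was 1323, 3151, 2028 and 1939 CPM. The osteoblast sum was 1552, 9562, 3332 and 3164.5 CPM, again in the order of Spp1. The r of Spp1 with these sums was not computed. Spp1 was not called in the other 3 comparisons. Its log2 fold change was 1.03 for 5/6 Nx-HPi-Hp against Sham mice (95% CI, -0.025 to 2.09; adjusted p = 0.119), called only without 5/6 Nx-HPi-Hp mouse 3 (1.30, adjusted p = 0.0459), and -0.0041 for 5/6 Nx-LPi-Lp against Sham mice (95% CI, -0.90 to 0.89). Gm42793, which overlaps Spp1 on the same strand, held 145 reads against 124992.

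Mgp (ENSMUSG00000030218, chromosome 6, 136872435 to 136875823, minus strand) encodes a vitamin K dependent inhibitor of calcification made in smooth muscle and cartilage. It had its highest means in Sham and 5/6 Nx-HPi-Lp mice and its lowest in 5/6 Nx-HPi-Hp mice. Sham mice had 2864, 2400, 4158 and 2966 CPM and 5/6 Nx-HPi-Lp mice 3169, 2632, 3525 and 2230 CPM. The 5/6 Nx-HPi-Hp mice had 1801, 1905, 1240 and 2193 CPM and the 5/6 Nx-LPi-Lp mice 1365, 2060, 2630 and 2779 CPM. Every 5/6 Nx-HPi-Hp mouse was below every Sham mouse and every 5/6 Nx-HPi-Lp mouse, while the 5/6 Nx-LPi-Lp mice overlapped all groups. For 5/6 Nx-HPi-Lp against Sham the log2 difference was -0.14 (95% CI, -0.60 to 0.32; adjusted p = 0.617), and -0.056 without mice 1 and 4 (adjusted p = 0.868). For 5/6 Nx-HPi-Hp against Sham it was -0.79 (95% CI, -1.35 to -0.23; adjusted p = 0.0387), which passed by adjusted p but not 2-fold. It missed the adjusted p without any 1 mouse other than 5/6 Nx-HPi-Hp mouse 4 (0.0554 to 0.105). For 5/6 Nx-HPi-Lp against 5/6 Nx-HPi-Hp mice it was 0.67 (95% CI, 0.068 to 1.27; adjusted p = 0.127). All 6 smooth muscle markers were called lower in 5/6 Nx-HPi-Lp than in Sham mice, and 1 of 6 in 5/6 Nx-HPi-Hp than in Sham mice. Over the 16 mice Mgp had r = 0.16 with their sum and 0.73 within groups, and their part in the Mgp values was not tested.

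Ahsg (ENSMUSG00000022868, chromosome 16, 22891277 to 22899449, plus strand) encodes fetuin-A, a circulating inhibitor made mainly in liver. It ranged from 4.71 to 8.32 CPM in Sham mice, from 5.23 to 9.66 CPM in 5/6 Nx-HPi-Lp mice, from 5.63 to 12.8 CPM in 5/6 Nx-HPi-Hp mice and from 4.73 to 18.7 CPM in 5/6 Nx-LPi-Lp mice. All 4 ranges overlapped and no comparison passed the test. The log2 difference of 5/6 Nx-HPi-Lp mice was 0.19 from Sham (95% CI, -0.40 to 0.77), -0.15 from 5/6 Nx-HPi-Hp (95% CI, -0.89 to 0.58) and -0.082 from 5/6 Nx-LPi-Lp mice (95% CI, -1.08 to 0.92). The highest Ahsg value, in 5/6 Nx-LPi-Lp mouse 2, stood in a library whose 6 hepatocyte markers summed to 1.81 CPM. The library with the highest hepatocyte sum, 102 CPM in 5/6 Nx-HPi-Hp mouse 3, had 12.8 CPM of Ahsg. Over the 16 mice Ahsg and the hepatocyte sum had r = 0.50 (0.49 within groups), and the part of these markers in its level was not tested.

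Fam20c (ENSMUSG00000025854, chromosome 5, 138754514 to 138810077, plus strand), the Golgi kinase that phosphorylates osteopontin, was the least variable member in Sham mice, at 52.9, 54.0, 51.2 and 54.5 CPM. Its levels in 5/6 Nx-HPi-Lp mice were 39.4, 44.8, 33.8 and 38.4 CPM. The 5/6 Nx-HPi-Hp mice had 47.3, 48.6, 41.0 and 64.4 CPM and the 5/6 Nx-LPi-Lp mice 55.5, 46.4, 51.7 and 67.3 CPM. All 5/6 Nx-HPi-Lp mice lay below all Sham and all 5/6 Nx-LPi-Lp mice and overlapped the 5/6 Nx-HPi-Hp mice. The log2 difference was -0.48 from Sham (95% CI, -0.71 to -0.26; adjusted p = 0.00408) and -0.51 from 5/6 Nx-LPi-Lp mice (95% CI, -0.85 to -0.18; adjusted p = 0.0402), both past the adjusted p and under 2-fold. The second missed the adjusted p when mouse 1, 3 or 4 of either group was left out (0.0615 to 0.103), and also without 5/6 Nx-HPi-Lp mice 1 and 4 together (-0.52, adjusted p = 0.138), while the first passed there (-0.49, adjusted p = 0.0151). From 5/6 Nx-HPi-Hp mice it was -0.39 (95% CI, -0.79 to 0.0059; adjusted p = 0.168). The kinase and its substrate stood on opposite sides of Sham in these mice, at log2 differences of -0.48 and 9.11.

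Ratios within a library do not depend on how libraries are scaled, and they were compared as descriptions. The log2 ratio of Alpl to Enpp1 reads, which sets pyrophosphate breakdown beside its synthesis, averaged -1.25 ± 0.12 (SD, n = 4) in Sham mice and ran from -1.41 to -1.11. It ran from -0.50 to 1.42 in 5/6 Nx-HPi-Lp mice (mean 0.46 ± 0.81), from -0.84 to -0.15 in 5/6 Nx-HPi-Hp mice (mean -0.46 ± 0.29) and from -1.10 to 1.07 in 5/6 Nx-LPi-Lp mice (mean 0.13 ± 0.99). Each nephrectomized mouse lay above each Sham mouse, by as little as -1.10 against -1.11 for 1 5/6 Nx-LPi-Lp mouse, and the nephrectomized groups overlapped. Set against Ank, the membrane protein that carries ATP or pyrophosphate out of the cell, Alpl averaged -2.63 ± 0.23 in Sham, -1.29 ± 0.57 in 5/6 Nx-HPi-Lp, -1.72 ± 0.54 in 5/6 Nx-HPi-Hp and -2.37 ± 0.29 in 5/6 Nx-LPi-Lp mice. Here the 5/6 Nx-LPi-Lp mice overlapped Sham and the other nephrectomized groups did not. In 5/6 Nx-HPi-Hp against Sham mice Ank was lower by edgeR's test, at -0.65 on the log2 scale (adjusted p = 0.0258), under 2-fold. Alpl differed there by 0.23 (adjusted p = 0.372). The ratio of Spp1 to Mgp ran from -11.59 to -10.89 in Sham mice and from -3.67 to -1.01 in 5/6 Nx-HPi-Lp mice. Reads were not divided by transcript length here, so only differences between libraries can be read.

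**Figure D4:**
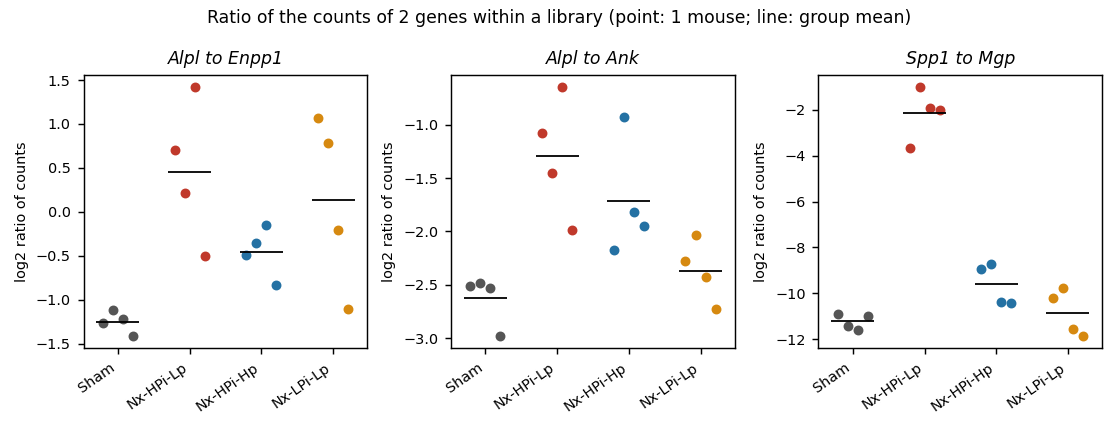
Log2 ratios of read counts within each library for Alpl to Enpp1, Alpl to Ank and Spp1 to Mgp, by group (points are mice, lines are group means, n = 4). For Alpl to Enpp1 the Sham mice, from -1.41 to -1.11, lie below all other mice, and for Spp1 to Mgp the 5/6 Nx-HPi-Lp mice lie apart from the rest.

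A further 40 genes of the same pathways were read from 5 lists drawn up by function, with earlier results of these data known. In 5/6 Nx-HPi-Lp against Sham mice 33 were tested, 7 rose and 6 fell (beside 15% and 7.18% of all genes). The list of pyrophosphate and adenosine neighbours held most of those that rose, 5 of 11 tested, with 1 that fell. Panx1, a channel that releases ATP, rose from 1.33 to 2.61 CPM in Sham to 13.5 to 22.4 CPM in 5/6 Nx-HPi-Lp mice (log2 fold change 3.15), without overlap. Ppa1, the cytosolic pyrophosphatase, rose by 2.14, and the adenosine receptors Adora2b, Adora2a and Adora1 by 2.16, 1.30 and 1.11 on the log2 scale. Entpd1, which encodes CD39 and degrades ATP to AMP ahead of CD73, was lower, at 63.7 to 102 CPM against 226 to 265 CPM (log2 fold change -1.48). All 5/6 Nx-HPi-Hp mice (88.3 to 184 CPM) and 5/6 Nx-LPi-Lp mice (99.7 to 187 CPM) were also below all Sham mice, without a call. Entpd1 was not called in 5/6 Nx-HPi-Lp mice against either of these groups. The CD39 transcript was thus called lower than in Sham, and the CD73 transcript, 1.93-fold above Sham, was not called. Ank itself was not called, at -0.24 (95% CI, -0.52 to 0.044). By adjusted p alone Slc29a1 of the same list was lower (-0.80, adjusted p = 0.000206), without overlap. It was also lower against 5/6 Nx-HPi-Hp mice (-0.79, adjusted p = 0.0124) and 5/6 Nx-LPi-Lp mice (-0.67, adjusted p = 0.00969), again without overlap or a call.

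Among phosphoproteins, their kinases and receptors 7 of 10 were tested against Sham, and Cd44, an osteopontin receptor, rose (1.64), while the integrin subunit Itgb3, also an osteopontin receptor, fell (-1.49), as did Phex (-1.99), a protease of osteopontin and related peptides. Among 7 genes of matrix vesicles and phosphate transport, the phosphate importer Slc20a1 rose (1.05), and its relative Slc20a2 (-1.23) and the phosphate exporter Xpr1 (-1.42) fell. Xpr1 was at 47.7 to 55.7 CPM in 5/6 Nx-HPi-Lp mice against 123 to 137 CPM in Sham. Among 3 other inhibitors tested, Sost, the secreted Wnt antagonist sclerostin, fell from 919 to 1412 CPM in Sham to 45.9 to 150 CPM (-3.72). None of the 5 tested genes of vitamin K dependent carboxylation, which activates Mgp, was called. By adjusted p alone Ggcx was lower (-0.76, adjusted p = 0.0114) and Vkorc1l1 higher (0.38, adjusted p = 0.0290), and the others did not pass. Slc20a1 lost its call with library totals as the scale, with no count filter, with limma on log2(FPKM + 1) and without Sham mouse 2 or 3 or 5/6 Nx-HPi-Lp mouse 1 (0.96 to 0.99 without 1 mouse). It also lost it without 5/6 Nx-HPi-Lp mice 1 and 4 (0.86, adjusted p = 0.00288), where the other 12 called pathway genes kept theirs. Adora1 lost its call with library totals, with limma on log2(FPKM + 1) or without Sham mouse 1 (0.96). Adora2a, Adora2b and Phex lost theirs with limma on log2(FPKM + 1) alone. The bone and dentin genes Dspp and Mepe, and Ucma of the vitamin K list, had at most 3 reads in every library.

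**Figure D5:**
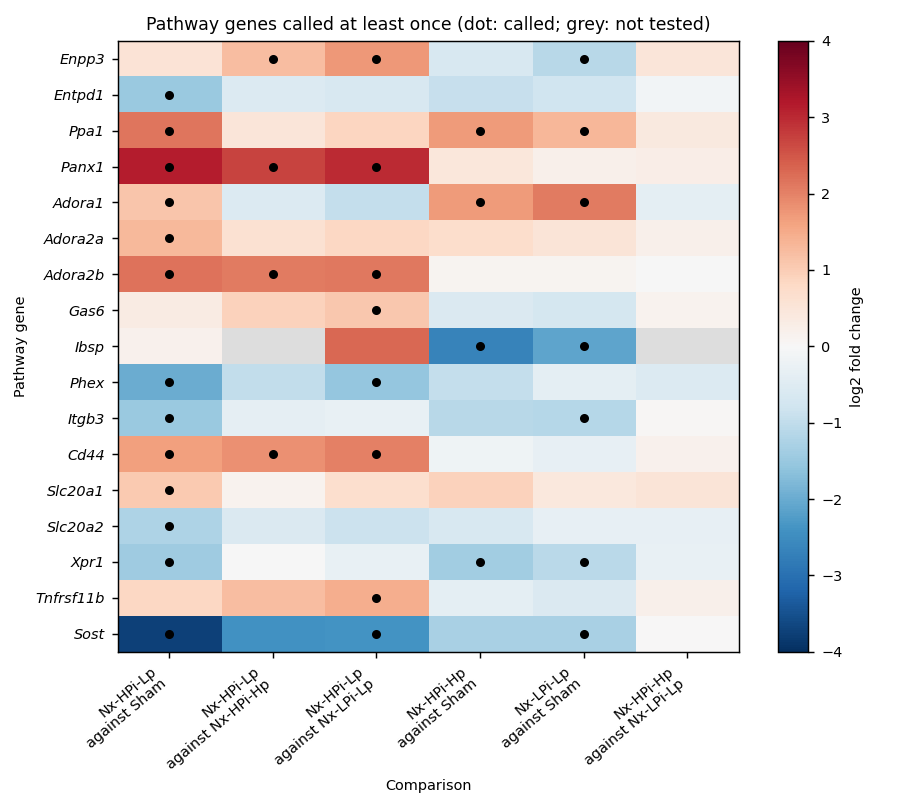
Log2 fold changes of the 17 pathway genes called in at least 1 comparison, for each of the 6 comparisons (edgeR, n = 4 against 4), with called values marked. Panx1 reaches 3.15 and Sost -3.72 in 5/6 Nx-HPi-Lp against Sham mice, and no value is called in 5/6 Nx-HPi-Hp against 5/6 Nx-LPi-Lp mice.

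Against 5/6 Nx-HPi-Hp mice 4 of 33 tested pathway genes rose in 5/6 Nx-HPi-Lp mice and 0 fell (beside 5.01% and 3.11% of all genes). They were Panx1 (2.71), Adora2b (2.08), Cd44 (1.82) and Enpp3 (1.22), an ENPP1 relative. Adora2b passed narrowly (adjusted p = 0.0495). It was lost without 5/6 Nx-HPi-Lp mouse 2, 3 or 4 or any 1 of the 5/6 Nx-HPi-Hp mice (adjusted p 0.0566 to 0.130). Adora2b was also lost with edgeR's relative log expression (RLE) factors or library totals as the scale, with limma at either pseudocount and with the replicate block. Enpp3 was lost without 5/6 Nx-HPi-Hp mouse 2 (adjusted p = 0.0529). Against 5/6 Nx-LPi-Lp mice 6 rose and 2 fell (beside 7.9% and 3.98%). Panx1 (2.99), Adora2b (2.11), Cd44 (2.03) and Enpp3 (1.73) rose here too. Tnfrsf11b, the decoy receptor osteoprotegerin, rose by 1.46 and Gas6, a vitamin K dependent ligand, by 1.09. Sost (-2.39) and Phex (-1.54) fell. Of these 8, Panx1, Cd44, Enpp3 and Tnfrsf11b were called with any 1 library left out. Adora2b was lost without 5/6 Nx-HPi-Lp mouse 2 or 3 or any 1 of the 5/6 Nx-LPi-Lp mice (adjusted p of 0.0673 or more), Phex without 5/6 Nx-HPi-Lp mouse 3 or 4 or 5/6 Nx-LPi-Lp mouse 3 or 4 (0.0662 to 0.0867), Sost without 5/6 Nx-HPi-Lp mouse 4 (0.0577) and Gas6 without 5/6 Nx-HPi-Lp mouse 2 (log2 fold change 0.88) or 5/6 Nx-LPi-Lp mouse 1 (0.98). Without 5/6 Nx-HPi-Lp mice 1 and 4, Sost (-2.38, adjusted p = 0.0777) and Phex (-1.56, adjusted p = 0.109) were no longer called against 5/6 Nx-LPi-Lp mice. The other 6 genes called there, and all 4 called against 5/6 Nx-HPi-Hp mice, were still called.

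In the other nephrectomized groups Adora1 and Ppa1 rose against Sham as well. In 5/6 Nx-HPi-Hp mice 2 rose (Adora1 1.69, Ppa1 1.69) and 2 fell (Ibsp -2.68, Xpr1 -1.38), of 33 tested (beside 9.41% and 2.75% of all genes). Ibsp, the bone sialoprotein, had 0 to 9 reads in that group, and its call was lost without Sham mouse 2 or 3 (adjusted p = 0.0525 and 0.0593). It was as sparse in 5/6 Nx-LPi-Lp mice, at 2 to 9 reads, against 19 to 49 reads in Sham mice. In 5/6 Nx-LPi-Lp mice 2 rose (Adora1 2.08, Ppa1 1.31) and 5 fell (Ibsp -2.11, Sost -1.29, Itgb3 -1.13, Enpp3 -1.12, Xpr1 -1.07), of 33 tested (beside 8.79% and 2.08%). Of these, Sost was lost without any 1 of 5/6 Nx-LPi-Lp mice 1 to 3 or of Sham mice 1, 2 and 4 (adjusted p 0.0550 to 0.0826), Itgb3 without 5/6 Nx-LPi-Lp mouse 1 (log2 fold change -0.98), Xpr1 without 5/6 Nx-LPi-Lp mouse 1 or 2 (-0.96 and -0.93) and Enpp3 without Sham mouse 1 (-0.97). Adipocyte markers moved with Adora1, at a summed 192 to 529 CPM in Sham, 1418 to 2294 CPM in 5/6 Nx-HPi-Lp, 493 to 3510 CPM in 5/6 Nx-HPi-Hp and 1155 to 3445 CPM in 5/6 Nx-LPi-Lp mice, and macrophage markers moved with Cd44 as given above. Their part in these results was not tested. In 5/6 Nx-HPi-Hp against 5/6 Nx-LPi-Lp mice edgeR called 0 of 32 tested pathway genes, in a comparison where it called 0 genes in all.

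The genes whose levels ran most like each member were found by Pearson's r of log2(CPM + 0.5) over the 16 mice among about 15033 genes at a mean of at least 1 CPM, with r within groups given second. The points share groups and libraries, so these are descriptions. Spp1 ran with Serpina3n (0.99, 0.77), Arg1 (0.98, 0.65) and Timp1 (0.98, 0.76), of which Arg1 is an enzyme of activated macrophages and Timp1 an inhibitor of matrix proteases. For Nt5e they were Ammecr1 (0.95, 0.88), Gdi2 (0.94, 0.81) and Dock4 (0.92, 0.75). For Alpl the likeness was weaker, with Igf2bp2 (0.86, 0.70), Med8 (0.82, 0.77) and Rdh16 (0.82, 0.67). Enpp1 ran with the matrix gene Postn (0.92, 0.91), the collagen receptor Ddr2 (0.89, 0.88) and Dock11 (0.89, 0.84). Mgp ran with the growth factor Fgf2 (0.90, 0.83), Inhba (0.88, 0.78) and Hpcal1 (0.88, 0.74). Fgf2 and Inhba encode secreted proteins. Abcc6 ran with the liver genes Alb (0.75, 0.71) and Serpina3k (0.74, 0.67) and with Gm15706 (0.73, 0.67). The nearest genes were Dagla (0.89, 0.90), Clec16a (0.89, 0.84) and Slc25a44 (0.87, 0.88) for Phospho1. They were Borcs7 (0.90, 0.92), Psmc5 (0.84, 0.85) and Chac2 (0.83, 0.86) for Ahsg, and Mllt1 (0.84, 0.69), Cdh16 (0.84, 0.69) and Pamr1 (0.83, 0.75) for Fam20c. Among the members themselves, Spp1 ran with Nt5e (r = 0.74) and Alpl (0.68) and opposite to Fam20c (-0.74). Within groups these 3 values were 0.11, 0.32 and -0.10. Enpp1 and Fam20c, by contrast, had r = 0.40 over all mice and 0.68 within groups.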

How the data were processed

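Total RNA of whole aortas was sequenced after selection with poly-T beads. The authors aligned reads to mm10 with HISAT2, obtained gene counts with featureCounts 1.5.0-p3 and deposited raw read counts per gene and FPKM values. In the deposited FPKM, libraries were already scaled to one another. Counting of strand and of reads with several matches was not given in the sources used here, so genes that overlap a member are named beside it. The study's methods give an age of 12 weeks and the labels a diet of 30 days.

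The 4 groups of 4 mice were taken from the sample labels. Each pair of groups was compared with edgeR 4.0.16 (R 4.3.3) on the deposited counts, with TMM normalization, filterByExpr and the quasi-likelihood test on the 8 libraries of the pair, and the 95% confidence intervals were derived from that fit. CPM were computed from each library's counted reads multiplied by its TMM factor over all 16 libraries. Replicate libraries differed by far more than sampling noise, so none was counted as a duplicate. The script was tested on simulated counts. Alternatives were 3 other scalings or gene sets (edgeR's RLE factors, library totals, mitochondrially encoded genes left out), DESeq2 1.42.0 and limma 3.58.1. Limma was run on log2 FPKM with pseudocounts of 1 and 0.1 (genes at a mean above 0.5). Further alternatives were no count filter, all 16 libraries in 1 fit, a replicate block, no fold-change threshold and each library left out. The fit without 5/6 Nx-HPi-Lp mice 1 and 4 was added after the data were seen.

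All 9 members are named, with the pathway genes called in at least 1 comparison or at or under 3 reads in every library, and the 3 genes most like each member. Ank, Slc29a1, Ggcx and Vkorc1l1 are named beside these. Members, pathway lists and marker lists were chosen with earlier results of these data known. Marker lists were those of smooth muscle, endothelial cells, fibroblasts, macrophages, neutrophils, hepatocytes, kidney tubule, adipocytes, chondrocytes, osteoblasts, sympathetic neurons and pancreas acinar cells. Those not given in the report were the endothelial list (2 of 5 called higher in 5/6 Nx-HPi-Lp than in Sham mice), the chondrocyte list (2 of 4 tested) and the pancreas list (2 of 2 tested, with a sum of 14.6 to 124 CPM against 4.72 to 6.65 CPM). Of 5 sympathetic neuron markers, 3 were tested in that comparison and 3 were higher. Promoter windows came from RefSeq (GRCm38.p6), and figures were drawn with matplotlib 3.10.9.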

Additional observations from a re-analysis of the deposited data

Results flagged for a closer look

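In 36 sets of 4 mice (9 genes in 4 groups), 2 held a mouse whose distance from its nearest neighbour exceeded Dixon's 95% limit for 4 values, which is set as a share of the whole range and which chance passes in about 5% of sets. Phospho1 stood at 4.01 CPM in 5/6 Nx-HPi-Hp mouse 1, while the other 3 mice of that group had 1.56, 1.80 and 1.93 CPM, a gap of 0.847 of the range. Ahsg stood at 18.7 CPM in 5/6 Nx-LPi-Lp mouse 2, while the others had 4.73, 5.16 and 6.11 CPM, a gap of 0.901 of the range. Without that mouse the log2 difference of Ahsg between 5/6 Nx-LPi-Lp and Sham mice was -0.38 in place of 0.32, and neither value passed the test. Why these 2 mice stood apart was not tested.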

How the results depend on the processing

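Of 987 values recomputed under the alternatives, 925 kept their direction and their side of the threshold. Spp1 was called against all 3 other groups under every alternative, with log2 fold changes of 7.75 to 9.67 against Sham, 7.27 to 8.66 against 5/6 Nx-HPi-Hp and 7.78 to 9.74 against 5/6 Nx-LPi-Lp mice. With limma on log2(FPKM + 1), the number of members called was 1 in each comparison of 5/6 Nx-HPi-Lp mice, and with log2(FPKM + 0.1) it was 1 against 5/6 Nx-LPi-Lp mice. A pseudocount of 1 shrinks the fold of genes with low FPKM. With no fold-change threshold it was 5 for 5/6 Nx-HPi-Lp, 1 for 5/6 Nx-HPi-Hp and 1 for 5/6 Nx-LPi-Lp against Sham, and by DESeq2 it was 1 for 5/6 Nx-LPi-Lp against Sham. Leaving out 1 library gave 2 to 3 members for 5/6 Nx-HPi-Lp against Sham, 2 to 3 against 5/6 Nx-HPi-Hp, 1 to 2 against 5/6 Nx-LPi-Lp, 0 to 1 for 5/6 Nx-HPi-Hp against Sham and 0 to 2 for 5/6 Nx-LPi-Lp against Sham. The libraries behind these changes are named with each gene above.

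In no comparison were the deviations of all 4 same-numbered pairs of mice correlated above 0.1, so the numbers were not taken to pair the mice. In 5/6 Nx-HPi-Hp against 5/6 Nx-LPi-Lp mice 3 of 4 pairs were above it (0.17, 0.13 and 0.50, and -0.069 for mouse 3). With the replicate block the members called against 5/6 Nx-LPi-Lp mice went from 2 to 1 (Nt5e, log2 fold change 1.19, adjusted p = 0.0510), the pathway genes called against 5/6 Nx-HPi-Hp mice from 4 to 2 and against 5/6 Nx-LPi-Lp mice from 8 to 5, and for 5/6 Nx-HPi-Hp against Sham from 4 to 7. The genes called in all went from 1315 to 371 against 5/6 Nx-HPi-Hp and from 1931 to 1271 against 5/6 Nx-LPi-Lp mice.

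The sign of 31 values turned, none of them called. For Ahsg in 5/6 Nx-HPi-Lp against 5/6 Nx-LPi-Lp mice it was 0.071 and 0.12 with limma (pseudocounts 1 and 0.1) and 0.16 with the replicate block, and -0.27 to 0.58 with 1 library left out. Fam20c in 5/6 Nx-LPi-Lp against Sham mice was -0.17 with library totals as the scale, which moved the median of all genes there to -0.22, and -0.040 to 0.15 with 1 library left out. Without 5/6 Nx-HPi-Lp mice 1 and 4, Abcc6 against Sham was -0.21 and Phospho1 against 5/6 Nx-HPi-Hp was 0.17. The other turns came from leaving out 1 library: in 5/6 Nx-HPi-Lp against Sham, Mgp -0.26 to 0.0098 and Abcc6 -0.0028 to 0.69; against 5/6 Nx-HPi-Hp, Enpp1 -0.24 to 0.16, Ahsg -0.33 to 0.039, Abcc6 -0.63 to 0.069 and Phospho1 -0.54 to 0.11; in 5/6 Nx-HPi-Hp against Sham, Fam20c -0.23 to 0.014; in 5/6 Nx-LPi-Lp against Sham, Spp1 -0.48 to 0.19 and Ahsg -0.38 to 0.50; and in 5/6 Nx-HPi-Hp against 5/6 Nx-LPi-Lp, Ahsg -0.15 to 0.74.

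Genes called in all numbered 3666, 1315, 1931, 1932 and 1748 in the first 5 comparisons. They numbered 2051, 768, 1052, 870 and 869 with limma on log2(FPKM + 1) and 7089, 2113, 3262, 4990 and 5115 with no fold-change threshold. Against 5/6 Nx-HPi-Hp mice they numbered 2094 by DESeq2, 2011 with all 16 libraries in 1 fit, 638 without 5/6 Nx-HPi-Lp mouse 4 and 682 without 5/6 Nx-HPi-Hp mouse 2. They numbered 1278 with 5/6 Nx-HPi-Lp mouse 4 left out against 5/6 Nx-LPi-Lp mice, and for 5/6 Nx-HPi-Hp against Sham 1091 without Sham mouse 2 and 3161 without 5/6 Nx-HPi-Hp mouse 4. With library totals as the scale the split of higher and lower calls became 972 and 892 for 5/6 Nx-HPi-Hp against Sham (from 1495 and 437) and 1048 and 842 for 5/6 Nx-LPi-Lp against Sham (from 1413 and 335), with all-gene medians of -0.19 and -0.22. In 5/6 Nx-HPi-Hp against 5/6 Nx-LPi-Lp mice 12 genes were called with no count filter and 10 with the block. For pathway genes, the count against Sham in 5/6 Nx-HPi-Lp mice went from 13 to 8 with limma on log2(FPKM + 1), and against 5/6 Nx-HPi-Hp mice it was 8 by DESeq2 or with all 16 libraries and 2 without 5/6 Nx-HPi-Hp mouse 2. For 5/6 Nx-HPi-Hp against Sham it was 8 with library totals, 7 by DESeq2 or with no count filter and 11 without 5/6 Nx-HPi-Hp mouse 4, and for 5/6 Nx-LPi-Lp against Sham it was 4 with all 16 libraries or without 5/6 Nx-LPi-Lp mouse 1. The cause of these changes was not tested.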
